A study of Mus musculus with 2 samples.

Results

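The genes described here are the mouse genes that carry signals from G protein-coupled receptors to cyclic nucleotides: the α, β and γ subunits of G proteins, the regulators of G protein signalling (RGS), the adenylyl cyclases and the cyclic nucleotide phosphodiesterases (PDE). Members were taken by name, as symbols of these families with at least 200 UMIs (unique molecular identifiers, 1 per captured RNA molecule) over 2 brain sections. Of 32285 genes listed, 79 names matched and 67 had enough UMIs: 11 of 14 Gα genes, 5 of 6 Gβ, 10 of 10 Gγ, 16 of 21 RGS, 9 of 10 cyclases and 16 of 18 PDE names. Adcy9 (295 UMIs) and Pde4d (336) lay just inside the minimum, and Pde7b (182) and Gna15 (170) just outside. The rule works on names alone, so it also took Gnb1l, which is not a G protein subunit, and Pde4dip, an anchoring protein and not an enzyme. Together the members gave 414926 UMIs in section 1 (0.708% of all UMIs) and 387882 in section 2 (0.694%).

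An activated receptor makes a Gα subunit exchange GDP for GTP and part from its βγ pair. Gαs and its relative Gαolf (Gnal) stimulate adenylyl cyclase to make cAMP, the Gαi group inhibits it, and Gαq and Gα11 stimulate phospholipase Cβ. RGS proteins end the signal by speeding GTP hydrolysis on Gα, and PDEs end it further down by hydrolysing cAMP, cGMP or both. In the striatum, dopamine and adenosine receptors are known to work through Gαolf, Gγ7 and the cyclase Adcy5, and RGS9 and PDE10A are known as striatal proteins.

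The samples were 2 Visium libraries, each from a 10 µm section of fresh-frozen brain of wild-type C57BL/6 mice, labelled ZT12 and replicates 1 and 2. No treatment or altered allele is given for them, and ZT commonly means zeitgeber time. In Visium the tissue is placed over spots with known barcodes, and every spot captures the RNA of a patch of tissue in which several cells of different types may lie. Whether the sections are from different animals is not stated. The p-values therefore cover only how differences between parts of the brain vary between these 2 sections, and that spread may be technical. The study set out to describe regional differences, so the comparisons are between parts of the brain.

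Spots with at least 500 UMIs were kept, 3030 in section 1 and 2531 in section 2, with medians of 18127 and 21555 UMIs. They were grouped by 17 lists of anatomical marker genes that hold no member and no gene of the pathway lists below. A spot joined the list with its highest score, and 983 spots (32.4%) and 746 spots (29.5%) without a clear highest list stayed unassigned. In the unassigned spots, 67 of 67 members lay within the range of the groups in both sections. UMIs were summed per section and group, and the 16 groups with at least 15 spots in each section gave 32 sums of 288837 to 7700438 UMIs. The striatum group had only 31 spots in section 1 against 214 in section 2, the superficial isocortex 106 and 26, and the midbrain dopamine area 128 and 23. Markers were highest in their own group in both sections for all 9 striatal, 7 thalamic, 9 fibre tract and 6 dentate gyrus genes, but for only 3 of 7 genes of the superficial isocortex and 4 of 7 of the midbrain and hindbrain. The same markers placed the spots, so high counts here are largely set by the grouping and are no separate check of the names. The list of Doc2g, Cdhr1, Eomes and Tbx21, fixed as olfactory bulb markers, gave only 92 and 128 UMIs in its group and is called by these genes, since so few UMIs do not support the name. In a spot, fewer cells of a type and less RNA per cell cannot be told apart.

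Levels are given as UMIs per 1000000 UMIs of the sum (CPM), section 1 first. Every group was set against the average of the 15 others by edgeR's quasi-likelihood test with a term for the section. The term takes out the mean difference between the sections. The spread that remains was estimated over all 16 groups together, with information shared across genes. A small p-value therefore does not rest on the 2 sums of the named group alone. Differences are log2 fold changes ± SE (n = 2 sections), and "called" means a difference of at least 2-fold with an adjusted p under 0.05 (Benjamini-Hochberg, over the 13041 genes tested). The comparisons share their sums, so they are not independent.

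Nearly all members differed somewhere. Of the 66 that passed the filter on low counts (Adcy9, with 153 and 142 UMIs, did not), 63 differed among the groups, 95.5% against 57.9% of all tested genes. The other 3 were Pde9a (adjusted p = 0.265), Pde3b (0.582) and Gnb1l (0.729). Members had at least 200 UMIs by rule, while the tested genes had only to pass the filter on low counts. The shares of members and of all genes, here and below, were not matched for UMIs. The part of UMI depth in their difference was not tested. Differences of 2-fold were fewer: 25 members were called in at least 1 group, in 35 calls of which 29 were higher and 6 lower. These were 2 Gα, 5 Gγ, 6 RGS, 5 cyclase and 7 PDE genes, and no Gβ gene. The ratio of the highest to the lowest group, taken on mean CPM, had a median of 1.95 over the Gα genes, 2.63 over Gγ, 2.40 over RGS, 3.98 over cyclases and 3.82 over PDEs. The 4 Gβ subunit genes, without Gnb1l, ran from 1.53 to 2.57 with a median of 2.02. The widest ratios belonged to Rgs9 (17.6), Gng8 (11.9) and Rgs14 (10.4). The striatum was the highest group for 17 members, the fibre tract for 8 and the deep isocortex for 7. In 23 of 67 members both sections of the highest group lay above both sections of the next. Calls in at least 1 group, highest groups and separate groups were not counted over all tested genes. These counts of members therefore have no background beside them.

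**Figure D1:**
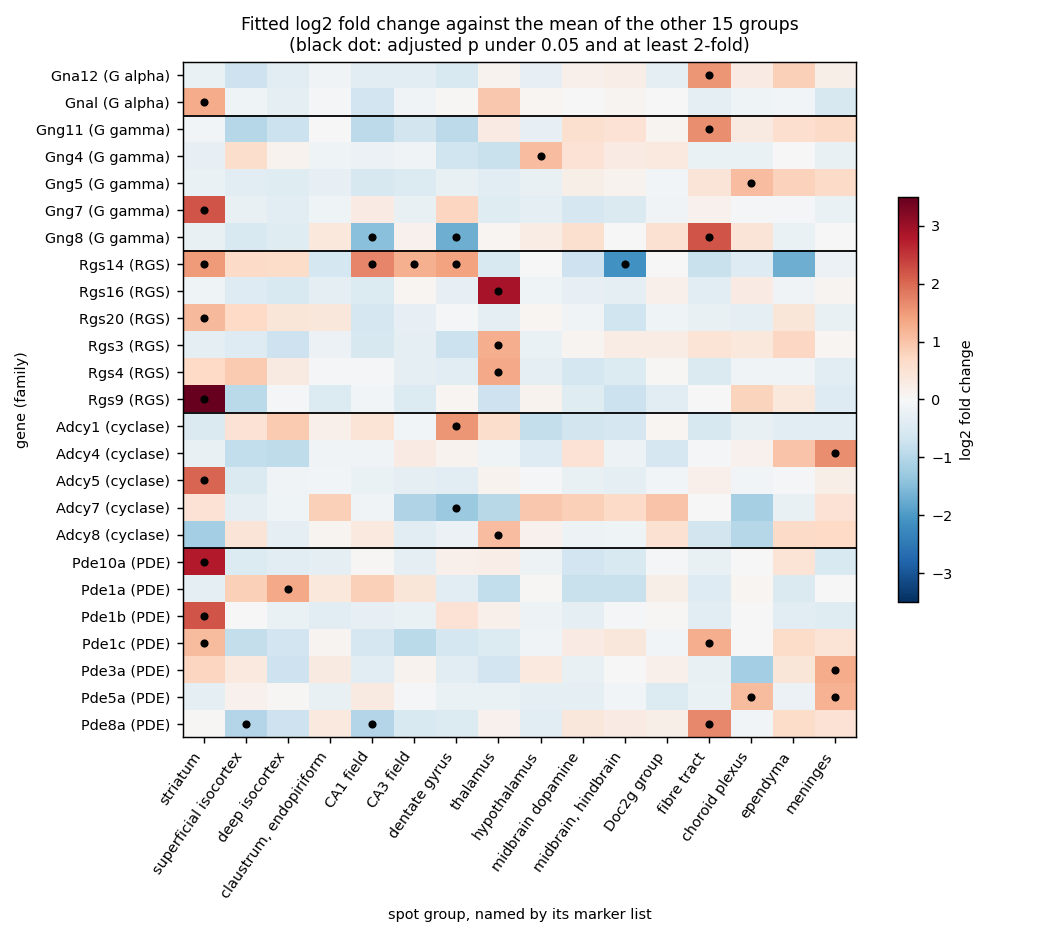
Fitted log2 fold change of each of the 25 members called in at least 1 group (rows, by family) in each of 16 spot groups (columns), against the mean of the other 15. Black dots mark the 35 calls, and the darkest red cells are Rgs9 in the striatum (3.49), Rgs16 in the thalamus (2.87) and Pde10a in the striatum (2.79).

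The 250 bases before the start of transcription are shown for 6 members that led a group and whose window lies outside the gene's own span: Rgs9 and Gng7 of the striatum, Rgs16 and Rgs4 of the thalamus, Adcy1 of the dentate gyrus and Pde8a of the fibre tract. They are RefSeq's sequences on GRCm38.p6, 5′ to 3′ on the gene's strand, and 53 of 67 members had an entry. Capitals mark matches to the core of the cAMP response element (TGACG, or CGTCA on the other strand) and to the TATA box (TATAAA, or TTTATA).
Rgs9, chr11:109298182-109298431, minus strand: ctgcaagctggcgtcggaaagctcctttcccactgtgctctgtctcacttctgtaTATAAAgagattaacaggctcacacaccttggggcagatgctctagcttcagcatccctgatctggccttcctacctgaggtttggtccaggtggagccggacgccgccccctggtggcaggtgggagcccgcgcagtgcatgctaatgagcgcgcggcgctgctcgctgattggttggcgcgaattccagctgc
Gng7, chr10:81014926-81015175, minus strand: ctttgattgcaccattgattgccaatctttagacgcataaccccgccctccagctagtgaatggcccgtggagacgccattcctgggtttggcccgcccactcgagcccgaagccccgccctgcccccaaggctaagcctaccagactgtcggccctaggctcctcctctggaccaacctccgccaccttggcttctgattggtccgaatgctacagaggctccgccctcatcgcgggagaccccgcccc
Rgs16, chr1:153740103-153740352, plus strand: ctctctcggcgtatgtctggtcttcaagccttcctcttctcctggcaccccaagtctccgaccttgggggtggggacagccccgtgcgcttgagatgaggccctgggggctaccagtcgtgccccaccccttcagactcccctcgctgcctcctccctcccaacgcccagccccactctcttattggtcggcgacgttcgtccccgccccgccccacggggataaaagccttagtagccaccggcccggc
Rgs4, chr1:169747643-169747892, minus strand: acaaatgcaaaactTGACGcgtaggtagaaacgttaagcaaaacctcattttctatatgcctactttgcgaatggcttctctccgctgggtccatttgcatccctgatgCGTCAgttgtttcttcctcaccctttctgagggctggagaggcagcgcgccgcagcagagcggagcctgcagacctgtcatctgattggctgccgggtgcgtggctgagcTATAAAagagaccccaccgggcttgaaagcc
Adcy1, chr11:7063183-7063432, plus strand: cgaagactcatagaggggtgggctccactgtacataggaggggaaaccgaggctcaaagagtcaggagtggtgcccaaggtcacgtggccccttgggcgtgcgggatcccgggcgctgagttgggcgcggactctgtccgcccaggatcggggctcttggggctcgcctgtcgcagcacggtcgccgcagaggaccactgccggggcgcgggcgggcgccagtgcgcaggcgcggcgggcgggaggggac
Pde8a, chr7:81213015-81213264, plus strand: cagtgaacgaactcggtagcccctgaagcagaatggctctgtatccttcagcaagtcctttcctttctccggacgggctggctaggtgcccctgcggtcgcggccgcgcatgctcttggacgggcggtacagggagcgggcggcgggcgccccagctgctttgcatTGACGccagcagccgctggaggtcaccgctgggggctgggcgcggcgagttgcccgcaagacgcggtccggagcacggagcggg
Of these 6 windows, Rgs4 held 2 matches to the core and 1 to the TATA box, Pde8a held 1 core and Rgs9 held 1 TATA box. Across all members, 17 of 91 such windows (18.7%) held the core, against 17.8% of the 32851 windows of all genes, and 10 of 91 (10.99%) held the TATA box, against 12.4%. The complete element TGACGTCA was found in 0 of the 91 windows and in 1.55% of all windows. A match describes letters only, and its absence says nothing of what binds there.

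The striatum stood out most. In it 9 members were called higher, 13.6% of the 66 tested against 1.68% of all genes, and they included a Gα, a Gγ, a cyclase, 3 RGS and 3 PDE genes. Rgs9, which encodes a brake on Gαi and Gαo (chromosome 11, 109225348 to 109298181), measured 312 and 326 CPM in the striatum. In the other 15 groups it ran from 7.64 to 55.9 CPM, so the striatum did not overlap with any of them, and the difference was 3.49 ± 0.12 (adjusted p = 7.1e-26). Rgs14, which binds Gαi and also H-Ras, stood at 24.2 and 26.3 CPM (1.48 ± 0.20, adjusted p = 2.38e-07), within the range of the hippocampal groups. Rgs20, an RGS protein that prefers Gαz, stood at 24.2 and 37.8 CPM (1.14 ± 0.18, adjusted p = 9.95e-06) and overlapped the ependyma.

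The striatal cyclase and G protein subunits were likewise apart from the other groups. Adcy5, a cyclase stimulated by Gαolf and inhibited by Gαi, measured 339 and 376 CPM against 55.5 to 110.2 elsewhere (2.04 ± 0.07, adjusted p = 6.64e-25). Gng7, the Gγ subunit that pairs with Gαolf, measured 312 and 279.5 CPM against 34.1 to 109 elsewhere (2.20 ± 0.10, adjusted p = 8.9e-22). It took 27.3% and 24.5% of all Gγ UMIs in the striatum and between 3.39% and 10.5% in the other groups. Gnal, encoding Gαolf, measured 249 and 239.9 CPM (1.30 ± 0.10, adjusted p = 6.14e-13). The thalamus had the next highest mean at 227 and 158 CPM, close to the striatum in section 1 and further below it in section 2. Gnas, encoding Gαs, went the other way: its striatal levels of 1409 and 896 CPM were the lowest mean of any group, with a difference of -0.55 ± 0.07 (adjusted p = 1.02e-07) that stayed under 2-fold. Gng2 (-0.57), Adcy1 (-0.49) and Adcy2 (-0.39) also passed the test below 2-fold. In the striatum 0 members were called lower by 2-fold, against 0.13% of all genes. At an unadjusted p under 0.05, 1 member was at least 2-fold lower, and DESeq2 called 0 lower.

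Among the striatal PDE genes, Pde10a, which hydrolyses cAMP and cGMP, measured 156 and 169 CPM, against 14.3 to 39.2 in the other groups (2.79 ± 0.10, adjusted p = 1.88e-25). Pde1b, a calcium and calmodulin dependent PDE, measured 713 and 747 CPM against 84.9 to 265 elsewhere (2.20 ± 0.08, adjusted p = 6.64e-25). It took 44.3% and 44.8% of the PDE UMIs of the striatum and at most 31.3% in any other group. Pde1c, of the same subfamily, was called from 6 and 57 UMIs (20.8 and 11.9 CPM, 1.12 ± 0.26, adjusted p = 0.0024) and overlapped the fibre tract. Pde2a (0.89), Pde8b (0.88) and Pde4b (0.51) rose by less than 2-fold.

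Gnb5 encodes the Gβ5 subunit that forms a complex with the RGS proteins of the Rgs9 group. It was higher in the striatum at 201 and 174 CPM (0.76 ± 0.09, adjusted p = 1.81e-08), above the deep isocortex at 136 and 131 CPM, and took 16.0% and 15.3% of the Gβ UMIs. Gnb4 (0.86) and Gnb2 (0.38) also passed the test under 2-fold.

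The 31 striatal spots of section 1 gave only 90 UMIs of Rgs9, 98 of Adcy5 and 45 of Pde10a. The choroid plexus markers summed to 5512 and 1869 CPM in the striatal spots, against at most 1467 and 1734 CPM in the groups other than the striatum, the choroid plexus and the ependyma, and their part in the striatal values was not tested. With the striatal sum of section 2 left out, Rgs20 (adjusted p = 0.772), Rgs14 (0.496) and Pde1c (0.576) were not called, while Rgs9, Pde10a, Pde1b, Gng7, Adcy5 and Gnal were. Outside the striatum, Rgs9 and Adcy5 were higher in section 2 than in section 1 in 15 of 15 groups. The summed striatal markers showed the same order in 15 of 15 groups, with 176 to 441 CPM in section 1 and 390.0 to 643 CPM in section 2, against 2323 and 3213 in the striatum itself. The part of this in the values of Rgs9 and Adcy5 outside the striatum was not tested.

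**Figure D2:**
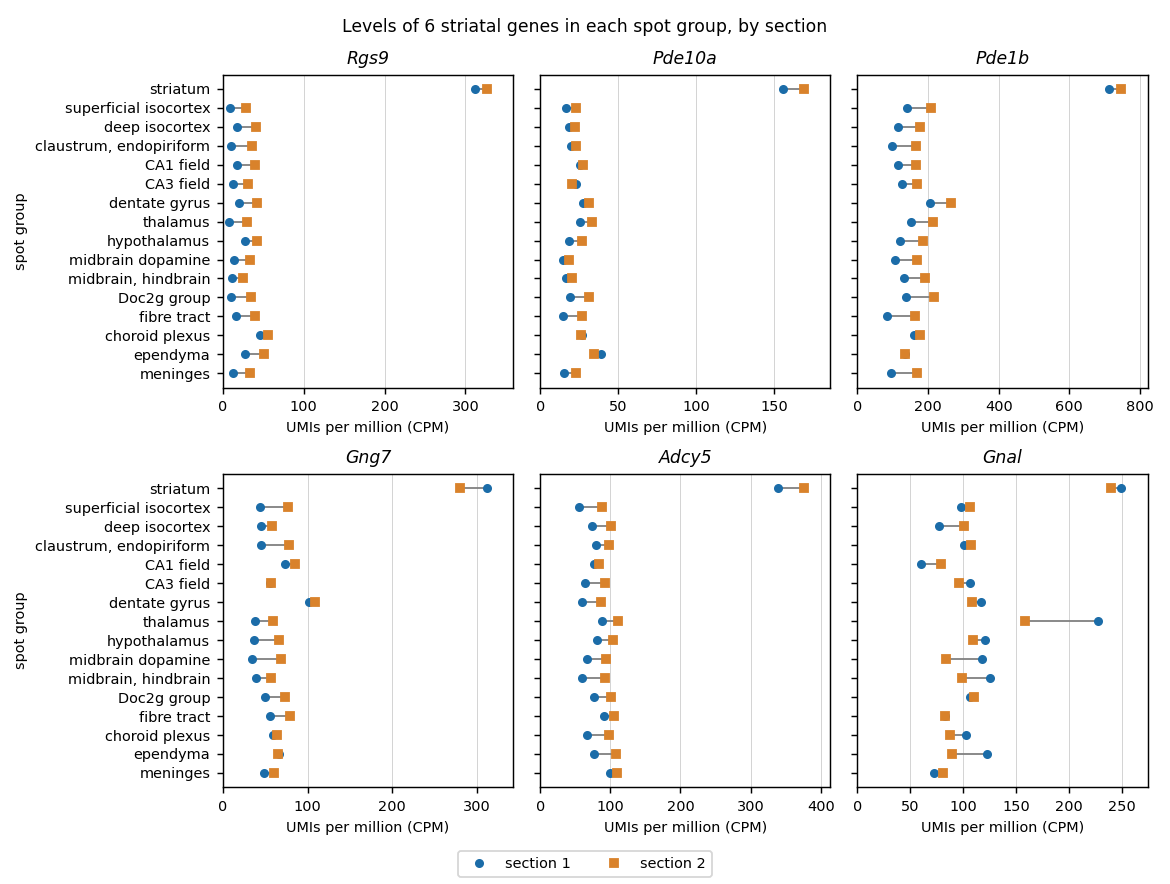
Level (CPM, x axis) of Rgs9, Pde10a, Pde1b, Gng7, Adcy5 and Gnal in each of 16 spot groups (y axis), with section 1 as circles, section 2 as squares and a grey line joining them. In each panel both striatal points lie to the right of every other group, narrowly so for Gnal, whose thalamic point of section 1 reaches 227 CPM.

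The pathway around the striatal members held further called genes. The pathway lists were chosen with earlier results of these data known. Their counts, here and below, describe the listed genes and are no test of a list. Of 9 tested cAMP effectors and substrates, 4 were called higher (1.68% of all genes) and 0 lower (0.13%), with a median of 0.48 beside -0.00 over all genes. They were Ppp1r1b, the DARPP-32 substrate of protein kinase A, at 492 and 693 CPM (3.02 ± 0.09), Arpp21 at 322 and 325 CPM (1.74 ± 0.10), the kinase anchor Akap5 (1.72 ± 0.15) and Arpp19 (1.07 ± 0.09). Of 7 tested RGS anchors and chaperones 1 was called, Rgs7bp, which anchors RGS proteins of the Rgs9 group at membranes (1.13 ± 0.10). Of 5 tested genes of cGMP synthesis and its kinases 1 was called, Gucy1a1, a subunit of soluble guanylyl cyclase (1.15 ± 0.11). Akap5, Arpp19, Rgs7bp and Gucy1a1 overlapped other groups, and Gucy1a1 was higher in the superficial isocortex (86.1 and 113 CPM) than in the striatum (65.8 and 105 CPM). None of 9 protein kinase A subunits and inhibitors was called, though 2 passed the test below 2-fold, and 2 of 2 tested G protein gated potassium channel genes passed it in the lower direction below 2-fold.

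In the thalamus 4 members were called higher, 6.06% against 1.9% of all genes, and 3 of them were RGS genes. Of the 16 RGS genes, 6 passed the test as higher and 4 as lower, with a median difference of -0.08 beside -0.01 over all genes. Rgs16, which acts on Gαi and Gαq (chromosome 1, 153740353 to 153745468), measured 132 and 78.3 CPM, while the other 15 groups stayed between 6.82 and 28.4 CPM (2.87 ± 0.11, adjusted p = 2.33e-24). The groups did not overlap, and the thalamus led in both sections although its level was higher in section 1. Rgs4 (chromosome 1, 169741477 to 169747642), another brake on Gαi and Gαq, measured 409 and 350.5 CPM (1.33 ± 0.10, adjusted p = 7.65e-15). The superficial isocortex came next at 326 and 226 CPM, so both thalamic values lay above it. Rgs3, a further RGS protein of Gαi and Gαq, measured 112 and 99.0 CPM against at most 85.2 CPM elsewhere (1.27 ± 0.08, adjusted p = 1.82e-16). Adcy8, a calcium-stimulated cyclase, was called from 61 and 52 UMIs (11.1 and 9.70 CPM, 1.08 ± 0.23, adjusted p = 0.000255), below the 14.9 CPM of the superficial isocortex of section 2.

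Rgs8 lies 42683 bases from Rgs16 on chromosome 1 and also had its highest mean among the 16 tested groups in the thalamus, at 175 and 116 CPM (0.84 ± 0.08, adjusted p = 5.94e-12, under 2-fold). The striatum nearly reached the same level at 170 and 106 CPM, so their sections overlapped. Rgs5, 45663 bases from Rgs4, was higher in the thalamus by 0.28 but had its highest mean in the fibre tract. Other neighbouring members differed in this. Gng13 and Rgs11, 483424 bases apart, both had their highest mean among the 16 tested groups in the deep isocortex, where each overlapped the next group. Gng13 was higher still in the untested cerebellar cortex spots of section 1 (608.6 CPM). Rgs9 and Gna13 (64612 bases) and Gng7 and Gna11 (513798 bases) were highest in different groups. Rgs10 was lower in the thalamus at 38.8 and 38.6 CPM (-0.79 ± 0.10, adjusted p = 5.99e-08), as were Pde2a (-0.87), Pde1a (-0.86), Pde8b (-0.84) and Rgs9 (-0.72), all below 2-fold. No member was called lower by 2-fold, against 0.92% of all genes. At an unadjusted p under 0.05 this count was 0 as well, and DESeq2 called 0. Without the thalamic sum of section 2 the count of calls was 7 in place of 4, with Gnal added as higher and Pde1a and Rgs9 as lower, and without that of section 1 Adcy8 was not called (adjusted p = 0.244). In the pathway, Plcb4, a phospholipase Cβ, measured 278 and 208 CPM (1.85 ± 0.08), Prkg2, a cGMP dependent kinase, 21.8 and 13.4 CPM (1.82 ± 0.18), and Rgs7bp 146 and 170 CPM (1.05 ± 0.08). These were 1 of 6, 1 of 5 and 1 of 7 tested genes of their lists, beside 1.9% of all genes. Plcb4 did not overlap any other group. Prkg2 overlapped the superficial isocortex (7.74 and 16.6 CPM) and Rgs7bp the striatum (121 and 179 CPM). None of 16 PDE genes was called, with 4 lower below 2-fold.

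Hippocampal groups shared Rgs14. It measured 26.2 and 29.1 CPM in the CA1 field (1.70 ± 0.18, adjusted p = 5.39e-10), 17.6 and 23.9 in the CA3 field (1.24 ± 0.22, adjusted p = 0.000101) and 20.7 and 25.2 in the dentate gyrus (1.42 ± 0.19, adjusted p = 1.39e-07). These groups and the striatum, at 24.2 and 26.3 CPM, were the 4 highest by mean level, and each overlapped its neighbour in that order. The isocortical groups came next at 11.6 to 14.4 CPM. It was the only member called higher in the CA1 field (background 1.01%) and in the CA3 field (0.874%), and 1 of 2 in the dentate gyrus (2.18%).

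The other member called higher in the dentate gyrus was Adcy1, a cyclase stimulated by calcium and calmodulin (chromosome 11, 7063433 to 7178506). It measured 708 and 582 CPM there (1.54 ± 0.07, adjusted p = 6.48e-22), above the deep isocortex at 471 and 386 CPM and the CA1 field at 379 and 263. It took 77.8% and 69.8% of the cyclase UMIs in the dentate gyrus, where every other group had between 21.5% and 67.0%. The dentate gyrus had 2 members called lower (background 0.606%): Adcy7 at 1.97 and 2.80 CPM (-1.30 ± 0.41, adjusted p = 0.0189) and Gng8 at 1.65 and 1.86 CPM (-1.70 ± 0.49, adjusted p = 0.0105). Both rested on 4 to 6 UMIs a section, and Adcy7 was not called without the dentate sum of section 1 (adjusted p = 0.441), nor Gng8 without either sum (0.203 and 0.0793). Without the sum of section 1, 2 members were called there in place of 4.

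In the CA1 field Pde8a (5.90 and 8.46 CPM, -1.03 ± 0.24, adjusted p = 0.00197) and Gng8 (2.21 and 1.84 CPM, -1.46 ± 0.47, adjusted p = 0.0302) were called lower, against 0.376% of all genes. Both were highest in the fibre tract, whose myelin markers were low in the CA1 field (6152 and 6663 CPM against 35852 and 38689.7 in the fibre tract), and the part of this in the result was not tested. Pde8a was not called without the CA1 sum of section 1 (adjusted p = 0.367). Gng8 was not called without either sum (0.216 and 0.274) and had an adjusted p of 0.11 without the section term. In the CA3 field 0 members were called lower, against 0.161% of all genes, with 1 member 2-fold lower at an unadjusted p under 0.05 and 0 called by DESeq2. Popdc3, a cAMP-binding protein, was called higher there from 10 and 13 UMIs (2.12 ± 0.46), and Pkig, a protein kinase A inhibitor, in the dentate gyrus at 159 and 161 CPM (1.06 ± 0.08). Each was 1 of 9 tested genes of its list, against 0.874% and 2.18% of all genes.

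Set directly against the dentate gyrus, the CA1 field had 1 member higher (background 0.644%) and 1 lower (1.03%). Pde1a, a calcium and calmodulin dependent PDE, measured 158 and 149 CPM in the CA1 field and was higher by 1.16 ± 0.18 (adjusted p = 1.36e-05). Adcy1 was lower by a log2 difference of -1.01 ± 0.10 (adjusted p = 2.17e-09). Its difference lay at the 2-fold limit: without the section term, without the margin between lists, without mitochondrial genes, and without either group's sum of section 2, 1 member was called in place of 2, while its adjusted p was at most 0.022 in any alternative. Pde2a (0.75), Gng3 (0.49), Pde1b (-0.75) and Gnal (-0.69) passed the test below 2-fold.

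**Figure D3:**
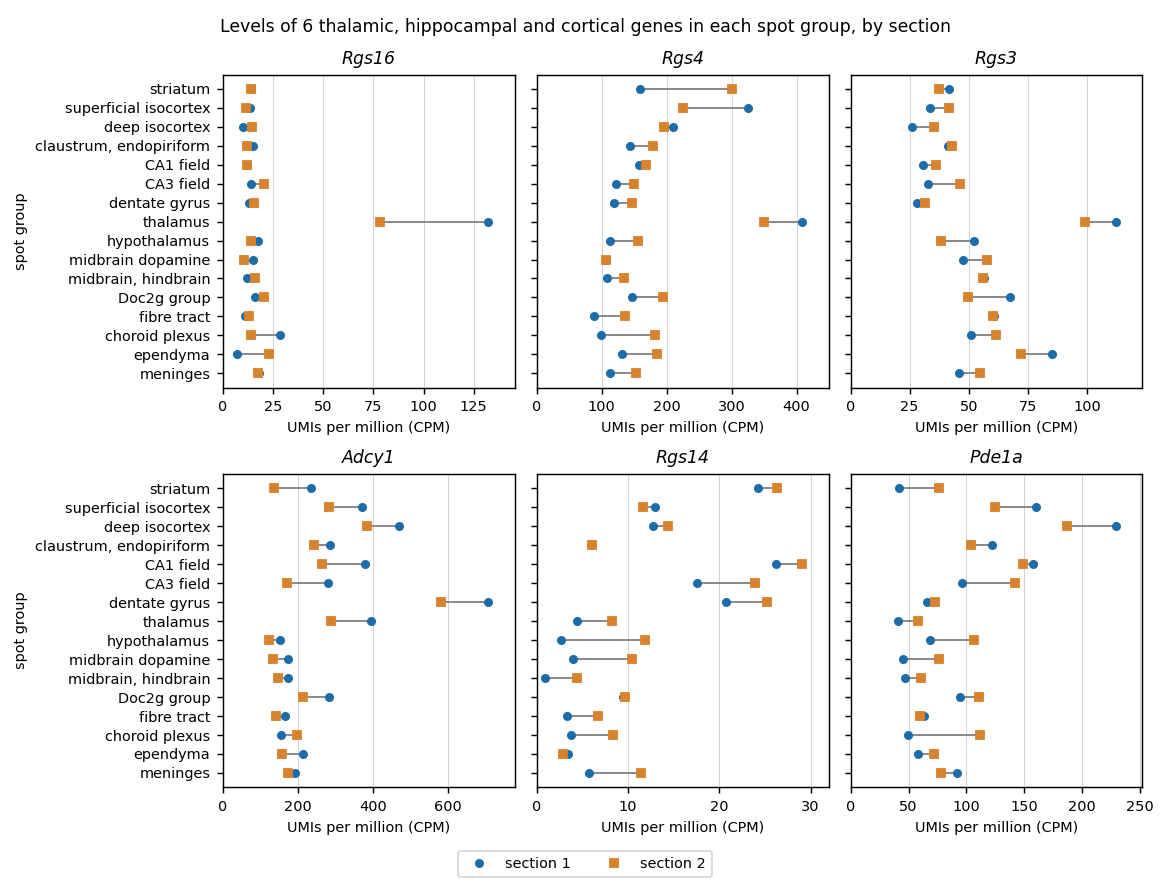
Level (CPM, x axis) of Rgs16, Rgs4, Rgs3, Adcy1, Rgs14 and Pde1a in each of 16 spot groups (y axis), with section 1 as circles, section 2 as squares and a grey line joining them. Rgs16 stands alone in the thalamus at 132 and 78.3 CPM, Adcy1 peaks in the dentate gyrus at 708 and 582 CPM, and Rgs14 has 4 high groups, the striatum and the hippocampal fields.

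In the deep isocortex Pde1a was the single member called higher (background 1.35%), at 229 and 187 CPM against 40.6 to 160 CPM elsewhere (1.33 ± 0.11, adjusted p = 3.21e-13). Adcy1 (0.92), Pde2a (0.77), Rgs14 (0.65) and Adcy2 (0.60) were higher below 2-fold. No member was called lower by 2-fold, against 0.874% of all genes. At an unadjusted p under 0.05, 0 members were at least 2-fold lower, and DESeq2 called 0. By the adjusted p alone, 19 members were higher and 12 lower. Without the group's sum of section 2, Pde2a was called as well. Of the superficial isocortex, 0 members were called higher (background 1.53%), with 1 at least 2-fold higher at an unadjusted p under 0.05 and 0 by DESeq2, and 1 was called lower (1.23%). This was Pde8a at 6.45 and 13.3 CPM (-1.04 ± 0.28, adjusted p = 0.00817), a difference that came from section 1 (-1.17) and not from the 26 spots of section 2 (-0.00). It was not called without the sum of section 1 (adjusted p = 1) nor without the section term (0.111). Without the sum of section 2, 5 members were called, Rgs4 and Rgs20 higher and Pde8a, Gng11 and Rgs9 lower.

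Deep and superficial isocortex, compared directly, differed by 2-fold in 0 members in either direction (background 0.345% and 0.291%), with 0 such members at an unadjusted p under 0.05 and 0 by DESeq2. Below 2-fold, Gng12 (0.74), Pde4a (0.54) and Adcy1 (0.40) were higher in the deep group and Pde4b (-0.55) was higher in the superficial group. In the pathway Gucy1a1 was called lower in the deep group (-1.16 ± 0.15), 1 of 5 tested genes of its list against 0.291% of all genes. It was also called higher in the superficial group against all others, at 86.1 and 113 CPM (1.18 ± 0.11), with Akap5 (1.19 ± 0.18) and Arpp21 (1.10 ± 0.10). These were 1 of 5 and 2 of 9 tested genes of their lists, against 1.53% of all genes. None of them had both sections above every other group.

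In the hypothalamus Gng4, a Gγ subunit, was called higher (1 member against 0.759% of all genes) at 60.8 and 98.8 CPM (1.08 ± 0.09, adjusted p = 8.81e-12). Its section 1 value lay within the range of the superficial isocortex. Rgs17, which acts on Gαz and Gαi, was highest there at 84.5 and 84.7 CPM (0.68 ± 0.09, adjusted p = 5.14e-07), Adcy7 had 14.9 and 8.18 CPM (0.94), and Adcy1 was lower (-0.85). DESeq2 and the fit without the hypothalamic sum of section 2 each called Adcy7 as well. No member was called lower by 2-fold (0.115% of all genes). At an unadjusted p under 0.05, 0 members were at least 2-fold lower, and DESeq2 called 0 lower. Nos1, the neuronal nitric oxide synthase, was called higher at 48.7 and 74.0 CPM (1.01 ± 0.11). It was 1 of 5 tested genes of its list, against 0.759% of all genes, and overlapped the CA3 field at 48.2 and 50.4 CPM.

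The midbrain dopamine area had 0 members called in either direction (background 0.475% and 0.429%), with 0 at least 2-fold at an unadjusted p under 0.05 and 0 by DESeq2. Rgs10, an RGS protein of Gαi, was higher there at 96.9 and 89.0 CPM (0.58 ± 0.13, adjusted p = 0.00409), and Rgs8 by 0.51. Pde1a (-0.79), Pde2a (-0.66) and Adcy1 (-0.63) were lower. The midbrain and hindbrain group had 1 member called lower (0.406% of all genes) and 0 higher (0.383%; 0 at an unadjusted p under 0.05 with 2-fold, 0 by DESeq2). This was Rgs14 at 0.938 and 4.38 CPM, from 2 and 5 UMIs (-2.12 ± 0.45, adjusted p = 0.00155), and it was not called without the sum of section 1 (adjusted p = 0.379) nor without the section term (0.0519). The group of the claustrum and endopiriform area had 0 members called (0.123% and 0% of all genes), with 0 of 2-fold at an unadjusted p under 0.05 and 0 by DESeq2. The Doc2g, Cdhr1, Eomes and Tbx21 group had 0 called of any gene (0% in both directions), with 1 member 2-fold higher at an unadjusted p under 0.05 and 0 called by DESeq2.

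The fibre tract group carried a different set. In it 5 members were called higher, 7.58% against 3.67% of all genes, and 0 lower against 0.261%, with 0 of 2-fold at an unadjusted p under 0.05 and 0 by DESeq2. Gna12, a Gα subunit (chromosome 5, 140759944 to 140830431), measured 276 and 221 CPM against 63.0 to 208 elsewhere (1.55 ± 0.08, adjusted p = 2.14e-19). The nearest group was the ependyma at 208 and 141 CPM, whose myelin markers were also the next highest at 22943 and 15150.3 CPM; their part in the ependymal level was not tested. Gng11, a Gγ subunit, measured 160 and 132 CPM against 23.6 to 111 elsewhere (1.63 ± 0.09, adjusted p = 2.37e-18). Both sections of the fibre tract exceeded every other value for these genes.

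Pde8a, a PDE specific for cAMP, measured 43.9 and 35.4 CPM in the fibre tract against 5.90 to 25.6 elsewhere (1.69 ± 0.14, adjusted p = 2.39e-13). Gng8, a Gγ subunit, measured 22.0 and 19.8 CPM, from 66 and 74 UMIs, against 0 to 10.8 elsewhere (2.19 ± 0.23, adjusted p = 2.5e-10). Pde1c measured 15.3 and 14.2 CPM (1.26 ± 0.20, adjusted p = 3.62e-06) and overlapped the striatum. The ranges of Pde8a and Gng8 did not overlap with those of any other group. Gng12 (0.96), Gnai2 (0.63), Pde4b (0.60) and Gnai3 (0.56) rose by less than 2-fold. Of the members, 20 passed the test in the lower direction there by less than 2-fold, among them Rgs14 (-0.79), Adcy1 (-0.55), Rgs7 (-0.51), Rgs4 (-0.49) and Gnb5 (-0.47). The median difference over the 66 members was -0.21 beside -0.01 over all genes. Microglia markers summed to 788 and 715 CPM (401 to 817 elsewhere), the highest of the tested groups in section 2. Astrocyte markers summed to 1145 and 865 CPM (448 to 1598), second only to the meninges in both sections. Endothelial markers summed to 277 and 232 CPM (141 to 344) and pericyte markers to 191 and 175 (116 to 875). Red blood cell markers summed to 1879 and 1710 CPM (520 to 12349). In section 1 these last 3 lists were second only to the meninges. The part of these lists in the values of the members was not tested.

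Non-neuronal surfaces had few called members. In the choroid plexus 2 members were called higher, against 5.2% of all genes, so the members' share (3.03%) was below the background. Gng5, a Gγ subunit, measured 121 and 154 CPM (1.07 ± 0.13, adjusted p = 1.33e-08), with the ependyma close at 104 and 150.1 CPM. It was under 2-fold, and so not called, without the choroid sum of section 2 (0.96) and without the margin between lists (0.82). Pde5a, a cGMP specific PDE, was called from 11 and 11 UMIs (1.12 ± 0.36, adjusted p = 0.0293) and was not called without either sum (0.424 and 0.0702) nor without the section term (0.142). With 1 sum left out the count was 1 each time, but the member was Gng5 without the sum of section 1 and Rgs9 (1.42 ± 0.43, adjusted p = 0.0265) without that of section 2. No member was called lower (0.276% of all genes), with 0 of 2-fold at an unadjusted p under 0.05 and 0 by DESeq2. Rgs9 was also higher in the choroid plexus by 0.78, at 45.4 and 55.9 CPM, and Ppp1r1b was called there at 201 and 228 CPM (1.51 ± 0.13). Ppp1r1b was 1 of 9 tested genes of its list, against 5.2% of all genes. The summed striatal markers were 441 and 535 CPM in this group. Leaving out the striatum, that was the highest of the groups in section 1 (the next was the ependyma at 380.1 CPM) and second in section 2 to the hypothalamus at 643 CPM, and their part in the values of Rgs9 and Ppp1r1b was not tested. The choroid plexus markers, with Ttr, took 102420 and 59208 CPM of the group's UMIs, which lowers the CPM of every other gene there, while the fitted differences use TMM factors (0.934 and 0.965).

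In the meninges group 3 members were called higher, 4.55% against 6.1% of all genes, and 0 lower (0.115%; 0 of 2-fold at an unadjusted p under 0.05, 0 by DESeq2). Adcy4, a cyclase, measured 14.0 and 7.59 CPM (1.62 ± 0.26, adjusted p = 4.97e-06). Pde5a measured 16.7 and 15.9 CPM (1.22 ± 0.22, adjusted p = 3.59e-05). Pde3a, a PDE inhibited by cGMP, measured 8.48 and 10.6 CPM, narrowly above the highest other sum at 8.29 CPM (1.30 ± 0.31, adjusted p = 0.00145). That sum was the superficial isocortex of section 2, with only 26 spots and 602921 UMIs of all genes. So few Pde3a UMIs lie behind it, and counting error in this narrow margin was not tested. Without the meninges sum of section 1, Adcy4 (adjusted p = 0.336) and Pde3a (0.132) were not called and 1 member was. The 3 smooth muscle markers summed to 314 and 279 CPM there against 21.6 to 113 elsewhere, the 6 pericyte markers to 875 and 586 against 116 to 191, and the 5 endothelial markers to 344 and 326 against 141 to 277, with none at 0. The 5 red blood cell markers summed to 9212 and 12349 CPM against 520.2 to 3204 elsewhere, the 6 astrocyte markers to 1598 and 1320.3 against 448 to 1145, and the 8 microglia markers to 817 and 656 against 401 to 806. The part of these lists in the 3 calls was not tested. Gnai2 (0.73), Adcy6 (0.79), Gng11 (0.67) and Gng5 (0.67) were higher below 2-fold. By the adjusted p alone, 8 of the 66 tested members were higher in the meninges and 18 lower. The median difference over the members was -0.11 beside -0.01 over all genes. In the pathway Itpr3, an IP3 receptor (1.54 ± 0.26), and Plcb3, a phospholipase Cβ (1.04 ± 0.17), were called. They were 2 of 6 tested genes of their list, against 6.1% of all genes, and both overlapped the ependyma. The ependyma had 0 members called (2.57% and 0.0613% of all genes), with 2 at least 2-fold lower at an unadjusted p under 0.05 and 0 by DESeq2. Gna12 (0.84), Gng5 (0.81) and Rgs3 (0.72) were higher there below 2-fold, and without the ependymal sum of section 2 Gna12 was called. Itpr3 was called in the ependyma from 5 and 9 UMIs (1.47 ± 0.46), 1 of 6 tested genes of its list, and overlapped the meninges.

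**Figure D4:**
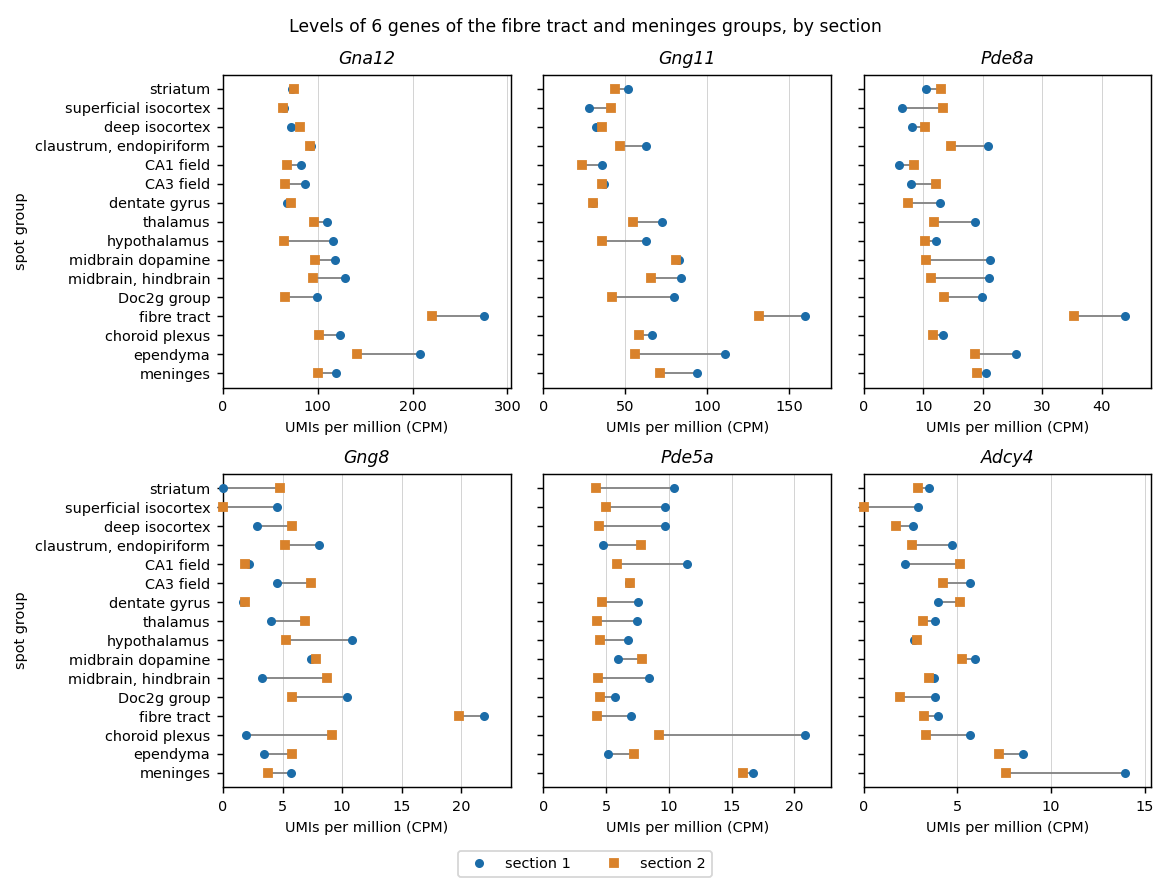
Level (CPM, x axis) of Gna12, Gng11, Pde8a, Gng8, Pde5a and Adcy4 in each of 16 spot groups (y axis), with section 1 as circles, section 2 as squares and a grey line joining them. The fibre tract leads the first 4 panels in both sections, and the meninges are high in the last 2, where the choroid plexus of section 1 reaches 20.8 CPM for Pde5a.

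Cerebellar cortex spots came almost only from section 1 (153 spots, against 1 in section 2), so there is no replicate and no test. Intervals are exact Poisson 95% intervals and cover counting error only. Gng13, a Gγ subunit, measured 608.6 CPM from 1571 UMIs (interval 579 to 639), while the other groups of section 1 ran from 69.9 to 124 CPM. Rgs8, a regulator abundant in Purkinje cells, measured 445 CPM from 1150 UMIs (interval 420.1 to 472), against at most 175 CPM, in the thalamus. Pde5a measured 28.7 CPM from 74 UMIs (interval 22.5 to 36.0), against at most 20.8 CPM. These 3 of 67 members lay with their whole interval above the measured value of every other group of section 1, and 0 lay below every group. The other groups' own counting error was left out. It is large for Pde5a in the choroid plexus, where few UMIs were counted. The same count over all genes was not made. Outside the cerebellum Gng13 varied little: its highest group, the deep isocortex, had 124 and 193 CPM (0.43 ± 0.08, adjusted p = 0.000101).

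**Figure D5:**
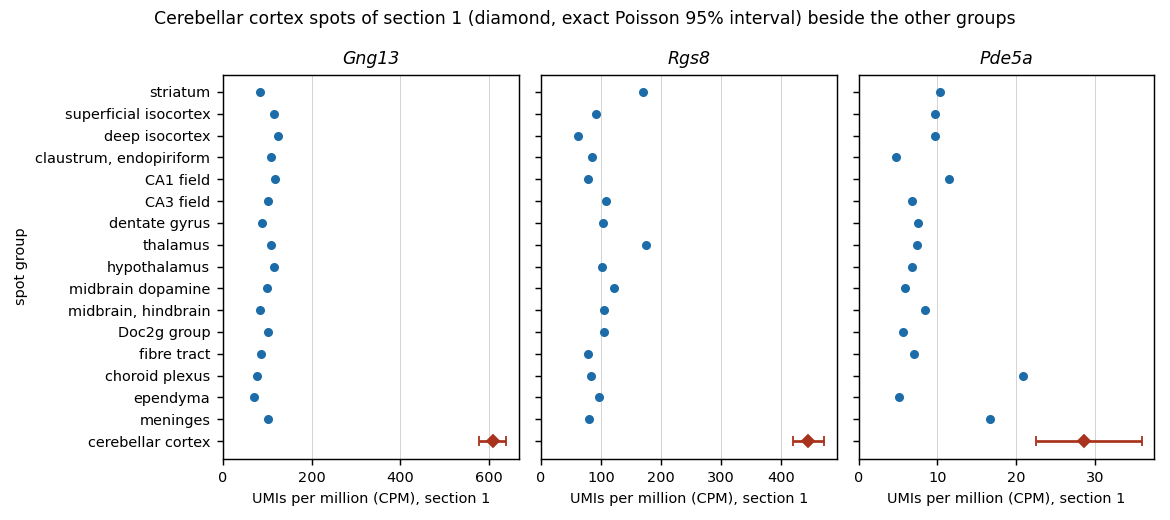
Level of Gng13, Rgs8 and Pde5a in section 1 (CPM, x axis) in the cerebellar cortex spots (red diamond, exact Poisson 95% interval) and in the 16 tested groups (blue circles). The cerebellar value lies to the right of every other group in each panel, at 608.6, 445 and 28.7 CPM.

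The broadly expressed subunits that follow were not called in any group. The ratio of the highest to the lowest group was 1.53 to 1.79 for Gnas, Gnao1, Gnb1 and Gng3. It was 2.55 for Gng2 and 2.19 for Gng10, above the Gα median of 1.95. Gnas took between 42.2% and 65.8% of the Gα UMIs in every group, and it was highest in the hypothalamus at 2235 and 1677 CPM (0.30 ± 0.06, adjusted p = 0.000594). Gnao1, encoding Gαo, was highest in the striatum at 471 and 430.3 CPM and lowest in the choroid plexus at 252 and 278. Its striatal values overlapped those of the superficial isocortex, at 440 and 453 CPM. Gnb1 was highest in the thalamus at 676 and 562 CPM (0.28) and Gng3 in the deep isocortex at 557.5 and 568 CPM (0.41), and both ranges overlapped the next group. Gng2 was highest in the dentate gyrus at 251 and 231 CPM (0.78), above the CA3 field at 216 and 214 CPM, and Gng10 at 78.6 and 80.2 CPM (0.67).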

How the data were processed

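The deposited files hold raw UMI counts, whole numbers for each gene in each spot, made by the authors with Space Ranger. Per the file headers the versions were 1.2.2 for section 1 and 2.0.1 for section 2. The submitters' processing notes name 2.0.1 and mm10, and the release of the annotation was not given in the sources used here. Any difference between versions cannot be told apart from the section.

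Spots with at least 500 UMIs were scored on 17 marker lists (105 of 106 genes measured), as the mean of log UMIs per 10000, centred and scaled over all spots. A spot joined its highest list at a mean of at least 0.5 that lay at least 0.25 above the next. Sums of counts per section and group went into a fit with edgeR 4.0.16 under R 4.3.3, using TMM factors, its default filter on low counts and the section as a term (15 residual degrees of freedom); the marker genes were left out of the tests. The SE is the size of the log2 fold change divided by the square root of F. Pairing by section follows from the design, since all sums of a number come from the same section. On simulated data the fit recovered 73.9% of 2-fold and 100% of 4-fold changes in the striatum, and 95.4% and 100% in the thalamus. Of the genes that passed, 5.42% and 6.84% were false. A pass here was an adjusted p under 0.05 alone, without the 2-fold limit of a call. The median fitted log2 difference of the 2-fold changes was 0.972 and 1.03, near that limit. Each simulation was 1 draw with the same spread for all genes, no section effect and no other difference between groups. Gene positions and promoters are RefSeq's on GRCm38.p6, matched by symbol. Named genes are the called members of each group, up to 6 higher and 4 lower by size with the same sign in both sections, the other members of each family by their range or below 2-fold, and up to 2 called pathway genes per list and group; Gnal, Rgs20 and Pde1c in the striatum and Akap5 and Arpp19 beyond this number were added after their values were seen. The members and lists were chosen with earlier results of these data known. The 1965 barcodes found in both sections are array positions shared by design, and spot positions were not used.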

Additional observations from a re-analysis of the deposited data

How the results depend on the processing

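The 37 calls of members were recomputed under 446 alternative values, among them DESeq2 1.42.0, other filters, other rules for the spots and each group's own sum left out. None changed direction. By the adjusted p alone, 422 kept their side of the threshold and 24 did not. With the 2-fold limit as well, 410 were still called and 36 were not, 12 of these for the fold alone (Adcy1 for the CA1 field against the dentate gyrus 5 times, Gng5 in the choroid plexus 2 times), and 22 of the 37 calls held throughout. The alternative without the Doc2g group was chosen after seeing the data. The count of members that differ among groups was 63, and 39 with at least 10 counts in every sum, which tests fewer genes (4873). Members with a lower sum, such as Rgs14, were left untested there, so its lower counts include members that were not tested. Under that filter the calls were 5 in the striatum, 2 in the thalamus, 1 in the dentate gyrus, 0 in the CA1 field, 0 in the CA3 field, 0 in the hypothalamus, 0 in the midbrain and hindbrain, 2 in the fibre tract, 1 in the choroid plexus and 0 in the meninges. Without the replicate block of the section they were 0 in the superficial isocortex, 0 in the midbrain and hindbrain, 1 in the choroid plexus and 1 for the CA1 field against the dentate gyrus, while 45 members differed among groups; the cause was not tested, and the other counts of calls stayed within 1.5 times. In the superficial isocortex the count was 0 with DESeq2, 0 without the margin between lists, 0 with neuronal groups only, and 2 with at least 1000 UMIs per spot, without mitochondrial genes or without the Doc2g group, where Gng11 lay at the 2-fold limit. DESeq2 gave 2 in the hypothalamus. A score of at least 1, which left 15 groups, gave 3 in the deep isocortex and 1 in the midbrain dopamine area. Neuronal groups alone gave 1 in the CA1 field. Without the margin the choroid plexus had 0 and the CA1 field against the dentate gyrus 1, as it had without mitochondrial genes. With 1 section's sum of the group left out, counts ran from 0 to 5 in the superficial isocortex, 1 to 2 in the deep isocortex, 2 to 4 in the dentate gyrus, 3 to 7 in the thalamus, 1 to 2 in the hypothalamus, 0 to 1 in the midbrain and hindbrain, 1 to 1 in the choroid plexus (Gng5 without section 1, Rgs9 without section 2), 0 to 1 in the ependyma, 1 to 3 in the meninges and 1 to 2 for the CA1 field against the dentate gyrus. The lone sum left is assumed to vary like the other groups. Several calls, such as Gng8 and Adcy7 in the dentate gyrus, Pde5a in the choroid plexus and Rgs14 in the midbrain and hindbrain, rest on 2 to 11 UMIs a sum.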
